A study of Mus musculus with 7 samples.

Results

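The 6 genes Epor, Csf3r, Il3ra, Csf2ra, Csf2rb and Csf2rb2 were taken as members out of 21938 protein-coding genes, and the accessible chromatin of each was read from the gene body and 30 kb on either side. The data were deposited peak lists, 1 for each of 7 bulk ATAC-seq libraries of the mouse hematopoietic progenitor line HPC7. In the study these libraries served to map where chromatin is open in HPC7 cells, and such a place is called an open-chromatin region (OCR). In ATAC-seq the Tn5 transposase cuts accessible DNA and leaves sequencing adapters there. The line is established and depends on stem cell factor, and all 7 libraries came from cells for which the labels name no genetic change or treatment, kept with 50 ng/ml of this factor and 5% calf serum, in culture batches independent of each other. The labels give a single condition, so the comparisons are between loci within a library, with the 7 libraries (HPC7-1, HPC7-2 and HPC7-4 to HPC7-8) as replicates. The peak names inside the lists carry the letters VD in 3 libraries and EtOH in the other 4, which neither the labels nor the methods explain. They were not used as conditions, and the comparisons were also read within each prefix.

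The receptors for erythropoietin, G-CSF, IL-3 and GM-CSF are type I transmembrane proteins of the class I cytokine receptor family. They have no kinase of their own and signal through bound JAK kinases and STAT factors after the ligand has brought the chains together. Epor and Csf3r encode receptors that work as pairs of the same chain, for erythropoietin in red cell precursors and for G-CSF in the granulocytic lineage. Il3ra and Csf2ra encode the ligand-binding alpha chains for IL-3 and GM-CSF. Csf2rb encodes the common beta chain, shared by the receptors for IL-3, GM-CSF and IL-5, and Csf2rb2 encodes a second beta chain of the mouse that serves the IL-3 receptor. In hematopoietic progenitors these receptors connect external cytokines with survival, proliferation and myeloid or erythroid differentiation.

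A list held between 84593 peaks (HPC7-6) and 132852 peaks (HPC7-1). The fold enrichment of a peak is the ratio of reads at its summit to the background of the library, each with 1 read added, and that background was 20.4 reads in HPC7-1 and between 4.44 and 7.45 reads in the others. Since fold enrichments were not normalized between libraries, the intensity of an OCR is given here as its percentile among all peaks of its library, where 100 is the most intense. Promoters of the 10 progenitor markers Kit, Cd34, Ptprc, Tal1, Gata2, Lmo2, Spi1, Runx1, Lyl1 and Erg had a peak in all 7 libraries, each in the top 25% of every library. Of 10 markers of other tissues, 5 had a peak within 3 kb of a start in all 7 libraries and 2 within 1 kb, and Alb, Ins2 and Myh6 had none in any library. Over all protein-coding genes, 60.8% had a peak in all 7 libraries within 3 kb and 55.9% within 1 kb. In the top 25% of every library were the promoters of 50.3%.

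Merging the peaks of all libraries gave 54 OCRs in the 6 windows, out of 144931 in the genome. A peak was listed in all 7 libraries at 33 of them (61.1%), against 46.2% of all merged OCRs. Outside 3 kb of every transcript start lay 27 OCRs, and 17 of these (63.0%) were listed in each of the 7 libraries, against 41.9% of all such OCRs. In the top 25% of every library were 16 of the 54 (29.6%), against 13.8% of all merged OCRs. Of these 16 intense OCRs, 4 lay at a promoter of a member, 5 at the start of another gene only and 7 away from every start. No test of these shares was made.

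Of the remaining 21 OCRs, 12 were listed in 2 to 6 libraries and 9 in 1 library. HPC7-1, the library with the longest list and the highest background count, held all 12 of the former and 8 of the 9 found once. HPC7-8, with the next longest list (124126 peaks), also held all 12, while HPC7-6, with the shortest list, held 1 of the 12. Reads at the summits of the OCRs found only in HPC7-1 numbered between 43 and 64, against a median of 106 over all its peaks. The ninth such OCR was in HPC7-6, with 24 reads. Support thus moved with the length of the list, and accessibility below the calling threshold was not detectable in lists that hold only called peaks.

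**Figure D1:**
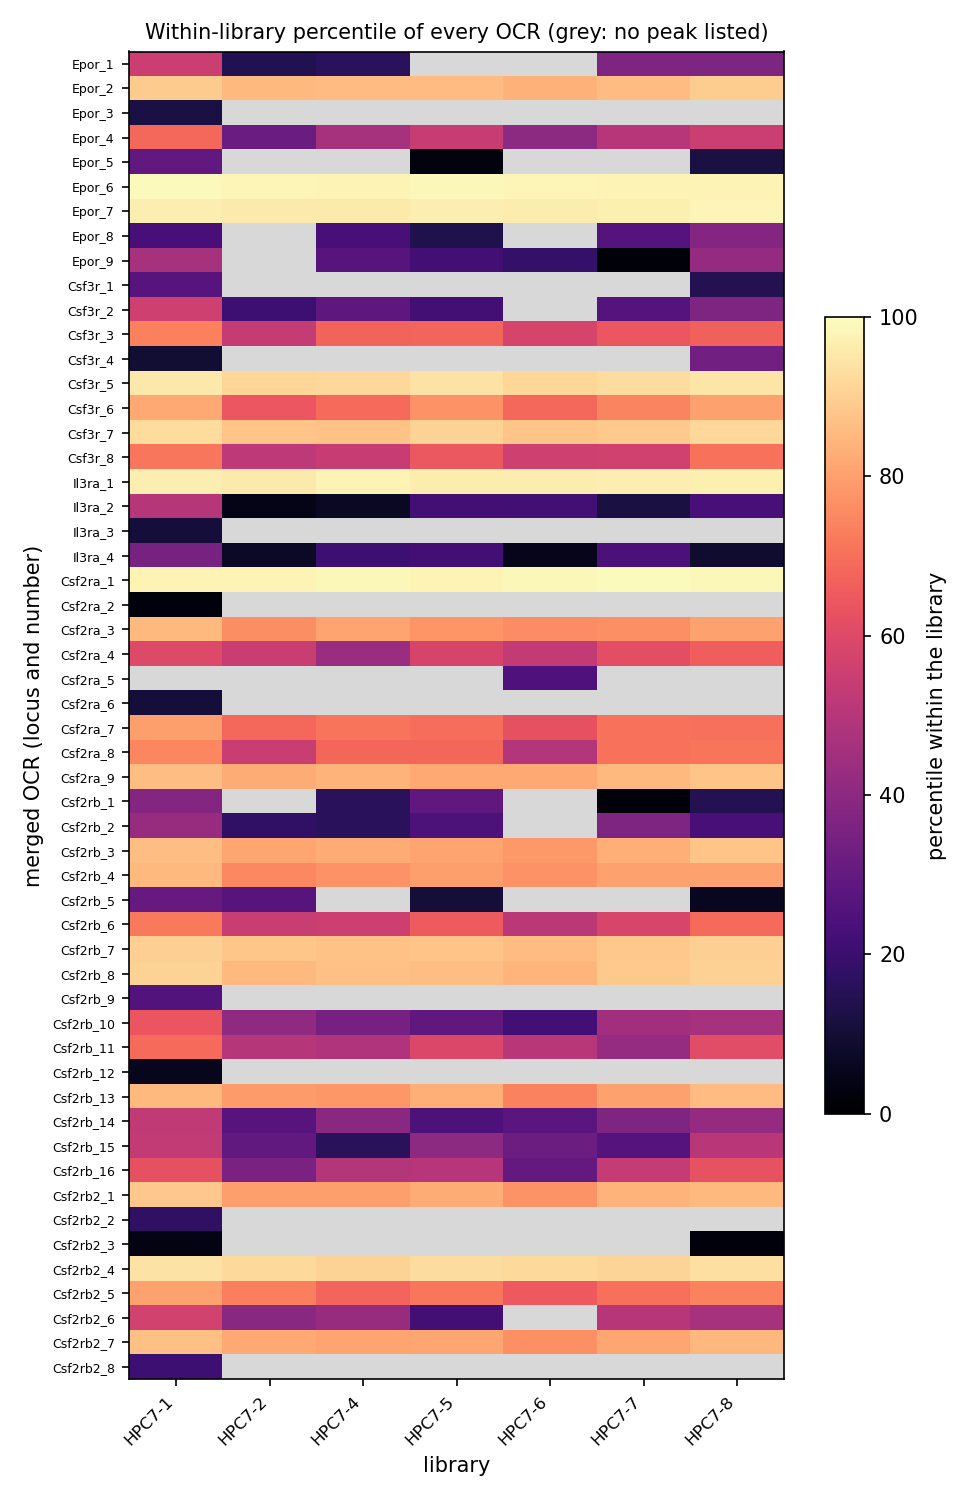
Within-library percentile (colour, 0 to 100) of each of the 54 merged OCRs (rows, numbered along the chromosome within each window) in each of the 7 libraries (columns); grey cells have no listed peak. The 33 OCRs with a peak in every library form complete rows, and most of the isolated cells are in the HPC7-1 column.

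All 6 receptor genes had a peak within 3 kb of a transcript start in all 7 libraries, as 60.8% of protein-coding genes did. All 6 also had one within 1 kb, as 55.9% of genes did. The promoter was in the top 25% of peaks in every library at 4 of the 6 (Epor, Il3ra, Csf2rb and Csf2rb2), against 50.3% of genes. The intensities of the most intense promoter OCR nevertheless spanned a wide range, from a mean percentile of 96.7 ± 0.583 at Il3ra (SD, n = 7) to 64.5 ± 6.73 at Csf3r.

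Epor lies on the reverse strand at chr9:21958897-21963506 (mm10) and has 2 annotated transcript starts. Its promoter OCR (Epor_7) was 2747 bp wide, at chr9:21961344-21964090, so that it covered the 5′ part of the gene. The fold enrichment was 87.4 at the lowest (HPC7-6) and 146 at the highest (HPC7-8), with a mean of 117 ± 21.4 (SD, n = 7) and between 552 and 2597 reads at the summit. The percentile was lowest in HPC7-2 (95.9), had a median of 96.6 and was highest in HPC7-8 (98.2). The Epor promoter was thus near the top of the list in every library. The summit was in an Epor intron, 0.916 kb downstream of the outermost start and 26 bp from the second start, and varied by 52 bp between libraries. The RefSeq promoter of Epor (GRCm38.p6) is shown because it lies inside this OCR, upstream of the RefSeq start at 21963576, on the reverse strand at chr9:21963577-21963826. In this and the following sequences the capitals mark matches, on either strand, to any of these letters: for GATA factors AGATAA as well as AGATAG and equally TGATAA together with TGATAG, for PU.1 GAGGAAG, for ETS factors CCGGAAG, for RUNX factors TGTGGT, for C/EBP TTGCNNAA, for STAT factors TTCNNNGAA, and for E-box factors CAGCTG as well as CAGATG. Overlapping matches were counted for each motif.
Epor promoter: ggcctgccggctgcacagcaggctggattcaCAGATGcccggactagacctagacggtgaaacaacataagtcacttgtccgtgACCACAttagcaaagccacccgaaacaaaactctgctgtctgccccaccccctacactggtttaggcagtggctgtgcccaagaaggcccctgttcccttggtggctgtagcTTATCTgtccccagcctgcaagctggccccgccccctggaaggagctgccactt
In the Epor stretch the capitals mark an E-box, a RUNX match and a GATA match. Over its whole 300 bases, including those not printed, the Epor promoter held 4 E-box matches. Over all 32851 RefSeq promoters of 300 bases, 30.6% held an E-box match, 16.8% a RUNX match and 29.8% a GATA match, so each is common and none of them is evidence of a bound factor.

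The Epor window held 9 OCRs, and 4 of them were supported by every library. Besides the promoter, the most intense of these was at the start of the neighbouring gene Swsap1, 7.63 kb downstream of the Epor start (Epor_6), with a percentile between 97.7 and 99.0 and a mean of 98.2 ± 0.460. The next was at the start of Plppr2, 26.6 kb downstream (Epor_2), with a mean percentile of 86.7 ± 2.15. The only OCR of the window that lay away from every start (Epor_4, intergenic, 13.0 kb downstream) was of middle intensity, between 31.6 in HPC7-2 and 68.5 in HPC7-1 with a median of 50.2. Apart from its own promoter, the intense OCRs at Epor were those at the starts of neighbours.

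Csf3r lies on the forward strand at chr4:126024550-126044440 and has 4 annotated starts. The most intense OCR within 3 kb of these starts (Csf3r_3, chr4:126027934-126028425, 492 bp) was intronic, with its summit 3.67 kb downstream of the outermost start and 923 bp from the nearest one. Its fold enrichment was between 7.67 (HPC7-6) and 14.1 (HPC7-5), with a mean of 10.6 ± 2.41, and its percentile was between 53.5 (HPC7-2) and 73.8 (HPC7-1) with a median of 67.1. The outermost start itself carried a weaker OCR (Csf3r_2), listed in 6 of 7 libraries and absent from HPC7-6, with between 21 and 127 reads at the summit. Taking 1 kb around that start alone, with 0 for the library without a peak, the mean percentile of Csf3r was 27.3 ± 17.0. The value of Csf3r therefore describes an intronic OCR rather than its outermost start. The bases around the intronic summit (chr4:126028115-126028315, forward strand) are shown because this was the leading OCR of the gene.
Csf3r_3 summit: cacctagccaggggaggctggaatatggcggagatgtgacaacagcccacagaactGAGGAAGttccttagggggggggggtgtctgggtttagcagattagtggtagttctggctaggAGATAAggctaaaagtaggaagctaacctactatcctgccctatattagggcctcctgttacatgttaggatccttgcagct
The capitals mark a PU.1 match and a GATA match. Among the 66979 summit windows of 201 bases from OCRs found in all libraries, 17.0% held a PU.1 match and 32.7% a GATA match.

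In the Csf3r window 5 of 8 OCRs had a peak in every library, and the intense ones were beyond the 3′ end of the gene. They were at the starts of Mrps15, which encodes a mitochondrial ribosomal protein (Csf3r_5, 22.5 kb downstream, mean percentile 93.2 ± 1.55), and of Oscp1 (Csf3r_7, 33.9 kb downstream, 89.5 ± 2.18). The next (Csf3r_6), in the untranslated sequence of Mrps15 27.3 kb downstream, ranged from 64.2 in HPC7-2 to 82.0 in HPC7-1. Upstream of Csf3r a single OCR was listed, 27.8 kb away (Csf3r_1, a summit position of -27.8 kb), in HPC7-1 and HPC7-8 only. The receptor gene with the weakest promoter among the 6 was therefore followed by intense promoters of other genes.

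Il3ra, which encodes CD123, lies on the forward strand at chr14:14346275-14356011 and has 7 annotated starts. Its promoter OCR (Il3ra_1, chr14:14345103-14350721) was the widest of the 54, at 5619 bp, and was made of 13 peaks from the 7 libraries. Only HPC7-1 listed 1 peak over the whole width. The other libraries each listed a main peak and a separate weaker one, with a percentile between 21.1 (HPC7-2) and 40.7 (HPC7-4). The width thus rests on HPC7-1. The fold enrichment was between 86.7 (HPC7-6) and 149 (HPC7-4), with a mean of 117 ± 22.1 and between 553 and 2513 reads at the summit. The percentile was 96.0 at the lowest (HPC7-2), 96.6 at the median and 97.8 at the highest (HPC7-4). The summit lay upstream of the outermost Il3ra start, at -0.601 kb, and varied by 6 bp between libraries. At that position the annotation also has an intron of Gm48860, another gene with a start within 3 kb, so the OCR cannot be assigned to Il3ra alone. The bases around the summit (chr14:14345574-14345774, forward strand) are shown because their position was the most stable among the promoter OCRs.
Il3ra_1 summit: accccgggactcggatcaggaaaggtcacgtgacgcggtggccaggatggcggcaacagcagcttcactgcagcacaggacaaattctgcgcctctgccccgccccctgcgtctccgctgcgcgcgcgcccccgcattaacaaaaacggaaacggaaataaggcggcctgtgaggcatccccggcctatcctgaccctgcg
None of the letters searched was found in this stretch of Il3ra.

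No other intense OCR was found within 30 kb of Il3ra. The window held 4 OCRs in all, the fewest of the 6 windows, and the others were intronic. Of these, Il3ra_2 had a mean percentile of 19.99 ± 15.2 and Il3ra_4 of 17.6 ± 11.0, both in all 7 libraries, while Il3ra_3 was listed in HPC7-1 alone. Every library had 4 peaks in this window. OCRs found in every library numbered 0.430 per 10 kb of the Il3ra window, and 44.8% of protein-coding genes had this density or a lower one.

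Csf2ra lies on the reverse strand at chr19:61223957-61228429 and has 7 annotated starts. Its promoter OCR (Csf2ra_7, chr19:61226934-61228761, 1828 bp) had a fold enrichment between 8.92 (HPC7-6) and 17.6 (HPC7-1), with a mean of 13.3 ± 2.74. The percentile was 62.9 at the lowest (HPC7-6), 70.1 at the median and 79.7 at the highest (HPC7-1), and it was in the top 25% in that library only. A second OCR within 3 kb of a Csf2ra start, 4.53 kb downstream of the outermost one (Csf2ra_4), had a mean percentile of 56.8 ± 7.28. The RefSeq promoter of Csf2ra (GRCm38.p6, reverse strand, chr19:61228430-61228668, outside exons) is shown for comparison with that of Epor.
Csf2ra promoter: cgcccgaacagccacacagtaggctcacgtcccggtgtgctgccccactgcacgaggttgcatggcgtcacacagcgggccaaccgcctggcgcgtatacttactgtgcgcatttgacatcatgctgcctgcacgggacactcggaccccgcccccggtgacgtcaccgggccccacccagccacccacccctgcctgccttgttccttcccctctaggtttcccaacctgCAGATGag
The capitals mark a single E-box match in the Csf2ra stretch. Over its whole 300 bases, including those not printed, the Csf2ra promoter also held 2 PU.1 matches.

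The OCR with the highest mean percentile of the 54 was not at a receptor start but 28.7 kb downstream of the Csf2ra start, in intergenic sequence (Csf2ra_1, chr19:61198532-61200861). Its percentile was between 97.8 and 99.3 with a median of 98.5 and a mean of 98.4 ± 0.519, its fold enrichment was 152 ± 20.1 (SD, n = 7), and between 726 and 3107 reads lay at the summit. The summit varied by 6 bp between libraries, and no transcript start of GENCODE M21 lay within 3 kb. Its mean exceeded that of the OCR at the Swsap1 start near Epor by less than the SD of either. A copy of at least 95% identity covered 9.96% of its bases, not including the summit. The bases around the summit (chr19:61199653-61199853, forward strand) are shown because this was the leading OCR away from any start.
Csf2ra_1 summit: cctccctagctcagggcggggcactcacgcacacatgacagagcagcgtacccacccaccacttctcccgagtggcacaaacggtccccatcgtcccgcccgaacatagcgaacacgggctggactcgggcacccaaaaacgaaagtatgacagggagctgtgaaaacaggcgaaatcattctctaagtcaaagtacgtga
None of the letters searched was found in this stretch of Csf2ra_1.

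Another intergenic OCR lay upstream of Csf2ra, at -16.5 kb (Csf2ra_9), with a percentile between 81.8 and 87.9, and one lay 20.7 kb downstream (Csf2ra_3), between 75.8 and 85.4. All 3 of these distal OCRs exceeded the Csf2ra promoter on average. Of the 9 OCRs at Csf2ra, 6 were in every library, and 3 were in 1 library each. The OCR at -4.01 kb, over an exon of the transcript AC165327.1 (Csf2ra_8, 65.2 ± 9.47), had copies elsewhere in the genome over 70.6% of its bases, its summit included, in 1019 alignments. How reads with several alignments were treated is not given in the sources used here, so this value may include reads of other loci.

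Csf2rb (forward strand, chr15:78325752-78353847) and Csf2rb2 (reverse strand, chr15:78282507-78305721) lie head to head with 20.03 kb between their outermost starts, so that their windows share 12 OCRs. The Csf2rb promoter OCR (Csf2rb_8, chr15:78325407-78327097) had a fold enrichment between 29.3 (HPC7-6) and 55.3 (HPC7-1), with a mean of 44.2 ± 9.53. Its percentile was 84.4 at the lowest, in HPC7-6, 86.8 at the median and 90.9 at the highest, in HPC7-1. The Csf2rb2 promoter OCR (Csf2rb2_11, chr15:78304829-78306158) had a fold enrichment between 18.5 (HPC7-6) and 41.4 (HPC7-8), with a mean of 28.9 ± 6.92. Its percentile was 78.5 at the lowest, 82.4 at the median and 87.8 at the highest. Both summits lay close to an annotated start, 74 bp away at Csf2rb and 45 bp away at Csf2rb2. The RefSeq promoter of Csf2rb2 (GRCm38.p6, reverse strand, chr15:78305722-78305971) is shown because it carried several of the letters searched.
Csf2rb2 promoter: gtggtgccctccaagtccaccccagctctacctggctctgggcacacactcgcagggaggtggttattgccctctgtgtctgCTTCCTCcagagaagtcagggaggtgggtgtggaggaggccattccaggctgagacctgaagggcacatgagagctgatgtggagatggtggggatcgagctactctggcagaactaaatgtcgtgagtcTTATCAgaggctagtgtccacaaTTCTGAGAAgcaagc
The capitals mark a PU.1 match, a GATA match and a STAT match in the Csf2rb2 stretch. Over its whole 300 bases, including those not printed, the Csf2rb2 promoter held 2 PU.1 matches. A PU.1 match was found in 13.6% of RefSeq promoters and a STAT match in 8.30%.

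Between both promoter OCRs lay 4 further OCRs, all intergenic, of which 3 were in every library and 2 in the top 25% of every library. The most intense lay at -4.76 kb from the Csf2rb start (Csf2rb_7, chr15:78320469-78322149), with a percentile between 86.0 and 90.1, a mean of 88.2 ± 1.48 and a fold enrichment of 46.2 ± 7.41. Its mean was within 1 SD of that of the Csf2rb promoter. The next (Csf2rb_4) lay at -13.1 kb from the Csf2rb start and at -6.89 kb from the Csf2rb2 start, with 79.4 ± 3.27. A weaker one between them (Csf2rb_6) had 60.9 ± 7.91. The interval between the genes was therefore accessible at several places in each library. Both windows contain these OCRs, and Csf2rb_7 and Csf2rb_6 were nearer to the Csf2rb start while Csf2rb_4 was nearer to that of Csf2rb2.

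The most intense distal OCR on the Csf2rb2 side lay 37.7 kb downstream of its start, beyond the 3′ end of the gene (Csf2rb2_4, chr15:78266936-78268627). Its percentile was between 90.8 (HPC7-4) and 94.4 (HPC7-1) with a median of 92.3, and its fold enrichment was 72.3 ± 15.5. In each of the 7 libraries it was more intense than the Csf2rb2 promoter. Downstream of the Csf2rb2 start it was followed by an OCR at the start of Ncf4, a gene for a subunit of the phagocyte oxidase (Csf2rb2_1, 82.5 ± 3.74). Csf2rb2_7 (27.2 kb downstream, 82.1 ± 3.19) had a mean within 1 SD of it, and Csf2rb2_5 (34.8 kb downstream, 71.8 ± 4.95) was lower, both intergenic. Apart from the promoter OCR, the most intense OCR inside the Csf2rb gene was intronic, 14.5 kb downstream of the start (Csf2rb_13), with a percentile between 74.1 and 86.3. The bases around the summits of Csf2rb2_4 (chr15:78267928-78268128) and Csf2rb_7 (chr15:78320892-78321092), both on the forward strand, are shown because these were the leading distal OCRs of the pair.
Csf2rb2_4 summit: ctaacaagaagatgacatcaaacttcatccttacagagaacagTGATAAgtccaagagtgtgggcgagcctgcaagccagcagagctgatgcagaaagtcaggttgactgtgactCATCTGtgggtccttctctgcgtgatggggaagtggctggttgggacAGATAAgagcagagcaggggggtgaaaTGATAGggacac
Csf2rb_7 summit: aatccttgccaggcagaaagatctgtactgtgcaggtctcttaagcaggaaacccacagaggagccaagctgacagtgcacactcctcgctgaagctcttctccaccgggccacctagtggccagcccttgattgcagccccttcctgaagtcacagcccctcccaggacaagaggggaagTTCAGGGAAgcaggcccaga
The stretch of Csf2rb2_4 held 3 GATA matches and 1 E-box match. The stretch of Csf2rb_7 held 1 STAT match, found in 4.83% of summit windows. A match is a description of the letters, and binding was not measured here.

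Csf2rb and Csf2rb2 are near copies in part. The OCR over a coding exon of Csf2rb (Csf2rb_14, within 3 kb of the start of Mir7676-2) was listed in all 7 libraries with 35.6 ± 10.1, and 97.8% of its bases aligned to the Csf2rb2 locus with 97.5% identity over 631 bp. The matching place in Csf2rb2 (Csf2rb2_8) was listed in HPC7-1 only, with 59 reads at the summit. Both summits lay inside the copy. As the handling of reads with several alignments is not given, either listing may include or lack reads because of the other place. Csf2rb_9, also in HPC7-1 only, had a copy over 100% of its bases. In Csf2rb_7 the copy covered 45.6% of the bases and left out the summit, and the most intense promoter OCR of each of the 6 genes had no copy at this identity.

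OCRs found in every library were densest, among the 6 windows, at both beta chain genes. They numbered 1.25 per 10 kb in the Csf2rb window and 1.32 in the Csf2rb2 window, and 87.3% and 89.6% of protein-coding genes had this density or a lower one. It was 0.931 at Csf2ra, 0.626 at Csf3r and 0.619 at Epor, and the median gene had 0.50. The windows of Csf2rb and Csf2rb2 overlap, so these values are not independent of each other.

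**Figure D2:**
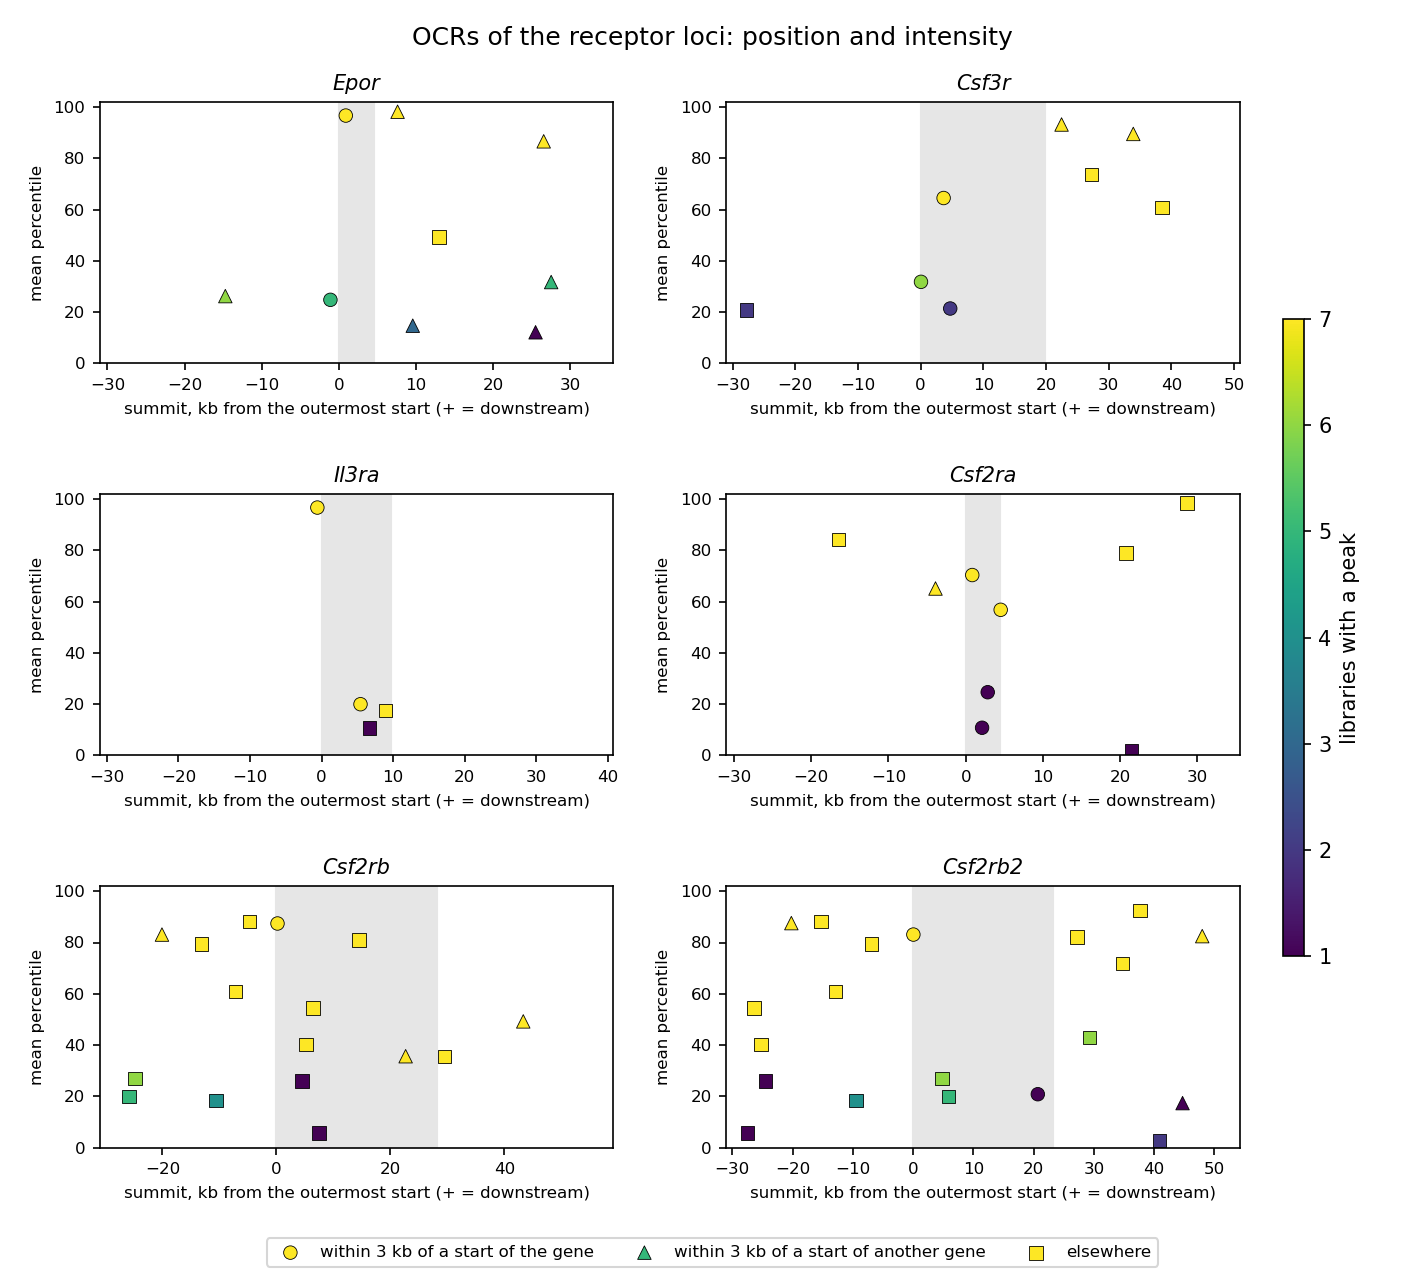
Mean within-library percentile (y axis, 0 to 100) of each OCR against the position of its summit in kb from the outermost transcript start of the gene (x axis, positive downstream; grey, gene body), with 1 panel for each gene. Colour gives the number of libraries with a peak (1 to 7) and the shape whether the OCR lay within 3 kb of a start of the gene, of another gene or of neither; Il3ra has 1 intense OCR, while Csf2rb2 has OCRs in the top 25% of every library on both sides of its promoter.

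The promoters were compared within libraries, pair by pair, to find which receptor genes differed in promoter accessibility. Of 15 pairs, 14 had a difference of 1 sign in 7 of 7 libraries. By exact sign-flip permutation, two-sided, each gave p = 0.0156 (0.0167 after Benjamini-Hochberg adjustment over the 15), and 7 libraries cannot give a smaller value. The order was Il3ra and Epor, then Csf2rb, Csf2rb2, Csf2ra and Csf3r. From Epor on, each neighbouring pair differed with 1 sign in 7 of 7 libraries. Across libraries the percentile ranges overlapped for each of these pairs except Epor and Csf2rb. Epor exceeded Csf2rb by 9.14 ± 1.99 percentile points, Csf2rb exceeded Csf2rb2 by 4.47 ± 1.12, and Csf2rb2 exceeded Csf2ra. That last difference was -12.7 ± 3.49 as Csf2ra minus Csf2rb2. Csf3r minus Csf2ra was -5.87 ± 4.31. The sizes depended on the scale. As percentiles among the promoter maxima of protein-coding genes, Epor exceeded Csf2rb by 42.9 points and Csf2rb exceeded Csf2rb2 by 7.42, while Csf2ra minus Csf2rb2 was -8.15 and Csf3r minus Csf2ra was -2.28. With 1 kb around the outermost start, Csf3r minus Csf2ra was -43.1.

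Il3ra and Epor were not separated. Epor minus Il3ra was -0.0232 ± 0.881 percentile points, with a range from -1.84 to 1.02 (exact sign-flip permutation p = 0.953), and Epor was higher in 5 of 7 libraries. With a peak-name prefix of VD the mean was -0.587 (n = 3) and with EtOH 0.399 (n = 4). The other 14 differences had 1 sign in 7 of 7 libraries. It follows that they had this sign in 3 of 3 libraries with VD and in 4 of 4 with EtOH. Of the neighbouring pairs, Epor minus Csf2rb was 8.57 with VD and 9.57 with EtOH, and Csf2rb minus Csf2rb2 was 4.15 and 4.72. Csf2ra minus Csf2rb2 was -10.3 with VD and -14.5 with EtOH, and Csf3r minus Csf2ra was -8.27 and -4.06. Whether the prefixes differed was not tested.

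The number of annotated starts differed between the genes, from 2 at Epor to 7 at Il3ra and Csf2ra, so the search for a promoter peak did not cover the same length at each. The chromosomes of the members had similar promoter intensities. The median fold enrichment of promoters, relative to the median autosome, was between 0.928 (chromosome 4, Csf3r) and 1.01 (chromosome 19, Csf2ra) on their 5 chromosomes, and the part of copy number in the differences was not tested.

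**Figure D3:**
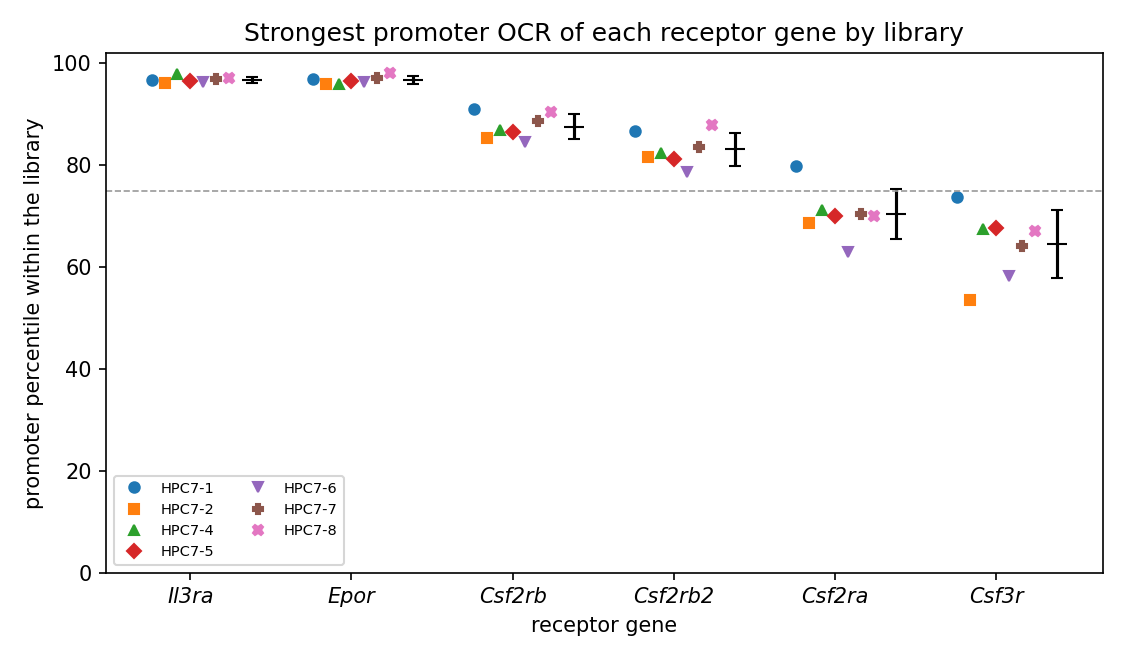
Percentile of the most intense promoter OCR of each gene (y axis) in each of the 7 libraries (symbols), with the mean and SD at the right of each group and a dashed line at the top 25%. Il3ra and Epor lie at 96.7 on average and overlap, and the 7 values of Csf3r lie between 53.5 and 73.8.

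The promoter of each gene was next compared with the median of the other peaks in its window, that is of all peaks not within 3 kb of its own starts. This describes the promoter against the middle of its locus and not against the most intense other OCR, which had a higher mean than the promoter at every gene but Il3ra (Epor_6, Csf3r_5, Csf2ra_1, Csf2rb_7 and Csf2rb2_4). The promoter was higher in 7 of 7 libraries at Il3ra, by 80.9 ± 8.22 percentile points, at Epor by 43.2 ± 5.85, at Csf2rb by 36.8 ± 4.53 and at Csf2rb2 by 18.3 ± 6.39 (exact two-sided sign-flip permutation, adjusted p = 0.0187 over 6 genes). At Il3ra the comparison rests on 1 or 2 other peaks per library. The other peaks include those at the starts of neighbouring genes, and the size depended on the window. With 100 kb on either side the difference at Il3ra was 46.4, and with 10 kb that at Csf2rb2 was 37.3. With VD and with EtOH the means were 79.8 and 81.7 at Il3ra, 43.1 and 43.4 at Epor, 35.1 and 38.0 at Csf2rb, and 16.7 and 19.5 at Csf2rb2.

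At Csf3r and Csf2ra the difference had the opposite sign. Csf3r was lower than the median of its other peaks in 7 of 7 libraries, with a mean difference of -9.48 ± 4.68 (exact sign-flip permutation, adjusted p = 0.0187). Without the peaks within 3 kb of other genes' starts it was -1.23 (exact permutation p = 0.438), so the call depended on including those peaks. With 10 kb on either side the Csf3r difference was -18.9. Csf2ra was lower in 6 of 7 libraries, with a mean difference of -8.94 ± 6.35 (exact sign-flip permutation, adjusted p = 0.0312), and HPC7-2 was the exception with 3.18. This value depended on the window and on the promoter width. The difference was 5.16 with 10 kb on either side (exact permutation p = 0.0625), -4.12 with 100 kb (exact permutation p = 0.516) and -4.81 with promoters of 1 kb (exact permutation p = 0.203). In libraries with the prefix VD the mean was -4.58 for Csf2ra and -6.80 for Csf3r (n = 3), and in those with EtOH -12.2 and -11.5 (n = 4).

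**Figure D4:**
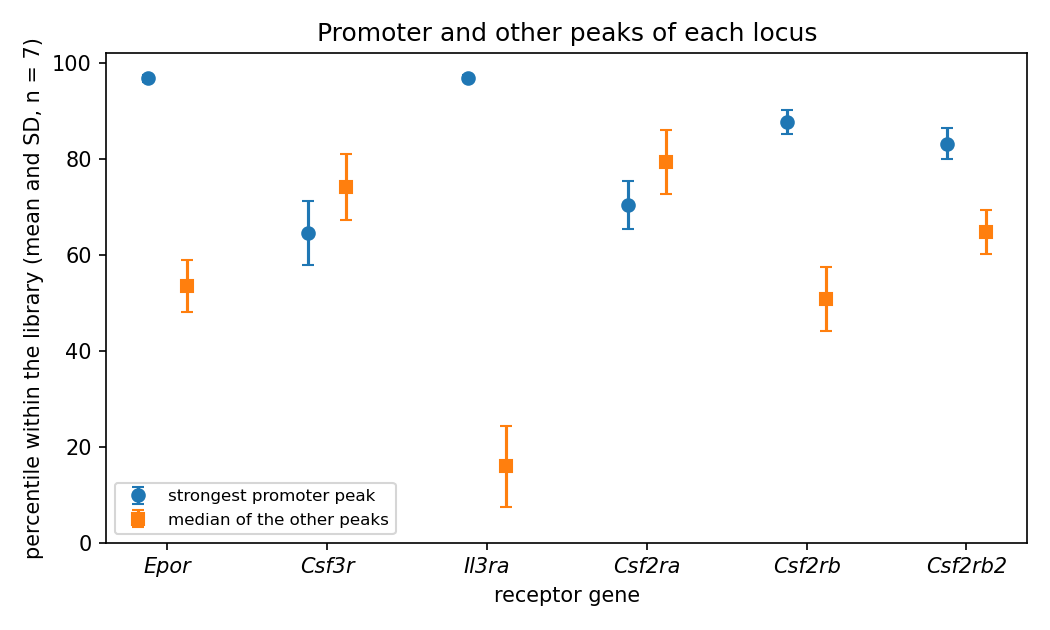
Mean percentile and SD over 7 libraries (y axis) of the most intense promoter peak (circles) and of the median of the other peaks in the window (squares) for each gene. The circle is far above the square at Il3ra (96.7 against 15.9) and below it at Csf3r (64.5 against 74.0) and Csf2ra (70.4 against 79.3).

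The promoters of the ligands, of other receptors of the family and of the signalling partners were described in the same way. Of the 5 ligand genes, Epo (89.0 ± 1.49), Csf3 (76.5 ± 4.29) and Csf2 (34.2 ± 11.9) had a promoter peak in all 7 libraries. This was so for 60.8% of all protein-coding genes. Il3 had a promoter peak in 3 libraries, and Il5, the eosinophil growth factor, had none. The 3 Il3 peaks all lay more than 1 kb from its start. Side by side with the receptor promoters, Epo (89.0) stood below Epor (96.7), Csf3 (76.5) above Csf3r (64.5), Csf2 (34.2) below Csf2ra (70.4) and Il3 below Il3ra (96.7), with no test made.

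Of 24 other genes of the class I receptor family, 17 had a promoter peak in all 7 libraries, against 60.8% of protein-coding genes. Another 6 of the 24 had none in any library (Il2ra, Il2rb, Il13ra1, Lifr, Osmr and Lepr). The genes of this list with the highest means were Crlf2, the TSLP receptor (98.0 ± 0.810), and Il12rb1 (92.3 ± 2.70). Prlr had a peak in 5 libraries. The gene of this list closest to each member over the 7 libraries was Crlf2 for both Epor and Il3ra (root mean square difference 1.70 and 1.42 percentile points), Il4ra for Csf2rb (0.826), Il27ra for Csf2rb2 (1.97), Ebi3 for Csf2ra (3.13) and Il12rb2 for Csf3r (6.19). Il12rb2 had a peak within 1 kb of a start in 2 of 7 libraries only. Ebi3 has the fold of a class I receptor but encodes a secreted cytokine subunit, not a receptor chain of the cell surface. All 17 signalling genes had a promoter peak in all 7 libraries, against 60.8% of protein-coding genes. Each was in the top 25% of every library, against 50.3% of genes. The highest were Tyk2 (99.5 ± 0.150), a JAK kinase, and the adaptor gene Shc1 (99.4 ± 0.167), and the lowest were Stat5b (88.8 ± 2.59) and Socs2 (90.0 ± 1.70). Over the lists, the median of the mean percentiles was 85.3 for the 6 members, 34.2 for the ligands, 68.5 for the other receptors and 95.1 for the signalling genes, against 80.8 for all protein-coding genes.

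**Figure D5:**
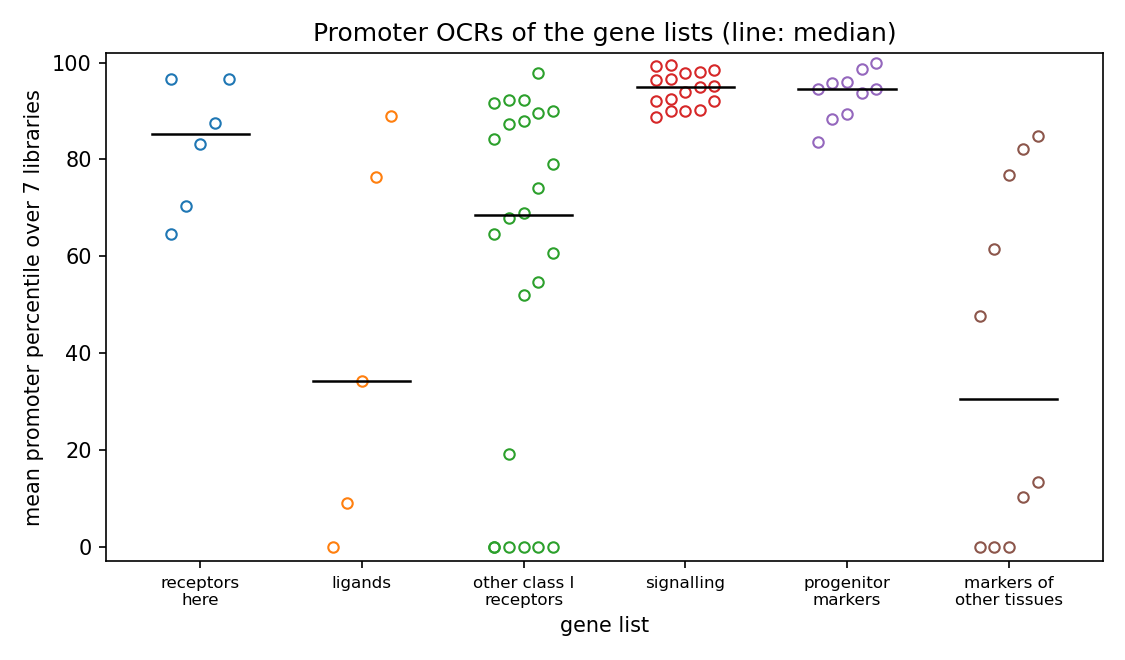
Mean promoter percentile over 7 libraries (y axis, 0 where no library had a peak) of each gene (circles) in 6 gene lists, with the median of each list as a line. The signalling genes and progenitor markers lie high, and the other class I receptors spread from 0 to 98.0.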

How the data were processed

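ATAC-seq was done on 7 HPC7 libraries. The study's methods name Cutadapt for trimming, BWA-mem for alignment (mm10) and, for peak calling per library, MACS2. Versions, options and the handling of reads with several alignments are not given in the sources used here. The deposited peak lists hold the fold enrichment, a ratio, and the −log10 p and −log10 q of each peak. The fold enrichments came out as whole reads over 1 background per library (100% of values, tolerance 0.02), so depth at a summit was recovered, while the total depth was not analysed here. Lists held 84593 to 132852 peaks, and no interval for single values was given.

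Peaks overlapping by at least 1 bp were merged. OCRs were numbered along the chromosome within the window of each gene (GENCODE M21, gene body plus 30 kb). A promoter OCR overlapped 3 kb around any transcript start of the gene, and other peaks were compared by their median. The percentile is the share of peaks of a library at or below a fold enrichment. Exact two-sided sign-flip permutation tests over 7 libraries (128 patterns) were adjusted by Benjamini-Hochberg over 15 pairs or 6 genes. Functions were tested on simulated data.

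The rule named, per gene, up to 3 OCRs outside its own promoters (starts of other genes included) with the most libraries and then the highest mean. It named every member, its closest receptor, and the 2 highest and 2 lowest genes of the ligand, receptor and signalling lists, all ties at 0 included. Other OCRs and genes named, such as Prlr, Gfap and Pdgfra, were picked after their values were seen, and the progenitor markers were given in full. The members and lists were chosen with earlier results of these data known. Sequences came from mm10 and RefSeq promoters of GRCm38.p6, which held 5 of the 6 genes (250 bases before and 50 after the start). Exonic bases were not printed. Copies were searched in the genome with blastn 2.17.0 (at least 95% identity over 100 bp). Other tools were scipy 1.17.1, pysam 0.24.0, numpy 2.4.6, pandas 2.3.3 and matplotlib 3.10.9 under Python 3.11.15. Alternatives were the peak threshold, window, promoter width, equal list lengths, overlap rule, intensity scale and leaving out each library.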

Additional observations from a re-analysis of the deposited data

How the results depend on the processing

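Of the recomputed values, 239 kept their direction and side of the threshold or, for counts, stayed within 1.5 times, while 2 moved further, 3 reversed and 3 lost their call. Many of the 239 were pair values that could not lose their call at the setting used, as given below. The number is therefore not a measure of robustness. All 6 genes had a promoter OCR in every library with 1 kb, with −log10 q of at least 5 and with equal list lengths, while at its outermost start alone Csf3r had one in 6 of 7. Of the 15 promoter pairs, 14 were called among promoter maxima, by log10 fold enrichment and, chosen after seeing the data, with 1 kb around the outermost start. Ranks among promoter maxima and log10 fold enrichments keep the order of promoters within a library. The calls of these 14 pairs therefore could not change on these scales, and only the sizes could. Promoters of 1 kb and the stricter −log10 q left every pair value as it was, so they do not bear on these calls. With 1 library left out the pairs called were 14 to 14 (exact permutation, highest adjusted p 0.0335), merged OCRs 48 to 55 and those in every library 33 to 36. The 14 pairs had 1 sign in every library, so leaving 1 library out could not change their calls. With 100 kb around the genes there were 111 merged OCRs, 65 in every library, with 10 kb 37 and 23, with equal list lengths 43 and 30, and 52 and 31 at the stricter −log10 q. By 50% reciprocal overlap 23 were in every library. Epor minus Il3ra turned to 0.147 among promoter maxima and ranged from -0.198 to 0.280 without 1 library, the latter without HPC7-4. The Csf2ra promoter minus its other peaks was 5.16 with 10 kb (exact permutation p 0.0625), -4.12 with 100 kb (p 0.516) and -4.81 with promoters of 1 kb (p 0.203). The Csf3r difference without peaks near other genes' starts was -1.23 (exact permutation p 0.438). The cause of these changes was not tested. At −log10 q of at least 5 the Il3ra difference gave no value. No paired analysis was possible because the labels give a single group, so no replicate number is shared between groups (the comparisons of loci are within libraries). Lists hold called peaks only, so weak accessibility was not detectable.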

Other observations

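Of the 54 OCRs of the receptor loci, 10 had a copy of at least 95% identity elsewhere in the genome, 7 with the summit inside the copy and 5 over at least 50% of their bases. Besides those at Csf2rb and Csf2rb2, they included Epor_8, upstream of Epor (54.3% of bases, 163 alignments), and Csf2ra_2, listed in HPC7-1 only (43.5% of bases, 5420 alignments). The summit of Epor_6 at the Swsap1 start also lay in a copy, which covered 12.5% of its bases.

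Within 3 kb of a start, 2 markers of other tissues, Cdh5 (84.8 ± 3.15, SD, n = 7) and Sftpc (82.1 ± 3.63), also had a peak in the top 25% of all 7 libraries. Neither had a peak within 1 kb of a start in any library. The markers Gfap (76.7 ± 5.38) and Pdgfra (47.6 ± 10.9) had one in 7 of 7 libraries, as all 6 receptor genes did, and the mean of Gfap was above those of Csf2ra and Csf3r. RNA was not analysed here.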
